A study of Mus musculus with 16 samples.

Results

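Macrophage and antigen-presenting cell markers were examined in the quadriceps femoris muscle of aged mice fed ursolic acid, a triterpenoid found in apple peel, or tomatidine, a steroidal compound from tomato plants, to learn how each alters mRNA levels in aged muscle. The markers were a list of 34 genes named for macrophages and related cells, not chosen by their values, and each was represented by the probe with the highest mean over the 16 arrays. Of these genes, 32 had a probe on the array among 16590 genes with one, whereas no probe used here carried the name Csf1r or Cd68. All mice were male C57BL/6 of 22 months when the diets began and of 24 months when muscle was taken. The 5 control mice ate standard chow, the 6 ursolic acid mice ate the same chow with 0.27% ursolic acid and the 5 tomatidine mice ate it with 0.05% tomatidine, each freely for 2 months. Both compounds were compared with the same 5 control mice, so the comparisons with control are not independent. The groups carried no genetic change, and no untreated young mice were analysed here.

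Macrophages reside between muscle fibres, where they clear debris and take part in repair. They recognise antibody-coated and complement-coated material through Fc receptors and complement receptors. They digest it in lysosomes and display peptides from it on major histocompatibility complex (MHC) class II molecules. Resident tissue macrophages carry scavenger and mannose receptors such as Cd163 and Mrc1, while monocytes that enter from the blood carry Ccr2. Dendritic cells and B cells also display MHC class II, and several of the genes below, such as Cd52 and Coro1a, are used by lymphocytes as well.

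Values are log2 signals, in which a difference of 1 is a doubling of signal, and they were already normalized when deposited. The lowest signal on an array lay between 7.87 and 7.9 and the array medians between 8.02 and 8.03, so a probe near 8 was not separable from the bottom of the scale, and its fold changes may be compressed. A mean of 8.5 or more was reached by 13 of the 32 genes, here called the brighter markers. These were Mrc1, C1qb, C1qc, H2-Ab1, H2-Eb1, Cd74, Fcer1g, Laptm5, Cd52, Coro1a, Lyz1, Lyz2 and Lgals3. The other 19 lay under 8.5, as did 72.9% of all genes. Among them were lineage genes of macrophages and of leukocytes in general. Adgre1, which encodes a surface protein by which mouse macrophages are recognised, averaged 8.06, the transcription factor gene Spi1 averaged 7.99, the pan-leukocyte gene Ptprc 7.96, the integrin gene Itgam 7.98 and the monocyte receptor gene Ccr2 7.95. The name of the list therefore rests on Mrc1 and on complement, lysozyme, MHC class II and Fc receptor genes. Lineage genes such as Adgre1 and Spi1 were near the floor, and Csf1r and Cd68 had no named probe. In whole muscle RNA, fewer cells of a type and less RNA per cell cannot be told apart.

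Almost none of the markers passed a test of difference from control. With ursolic acid, 0 of the 32 markers passed an unadjusted p of 0.025 in either direction by limma, beside 2.81% of all genes higher and 2.86% lower, and 0 were under an unadjusted p of 0.05. With tomatidine, 1 marker, Tyrobp, passed as higher and 0 as lower, beside 2.68% of all genes higher and 3.38% lower, and 2 markers, Tyrobp and Laptm5, were under 0.05. Thus the share of markers that passed with tomatidine, 3.13%, was near that of all genes. After Benjamini-Hochberg adjustment over all 25697 probes, 0 markers reached 0.1 in any comparison. By the methods' t-test, 0 markers passed 0.025 in either comparison with control and 0 were under 0.05.

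The direction of the tomatidine values was nonetheless one-sided. With tomatidine 29 of the 32 markers had a mean above control, compared with 49.4% of all genes, and the median log2 change over the markers was 0.08, compared with -0.00036 over all genes. All 13 brighter markers were above control, with log2 changes from 0.13 to 0.48 and a median of 0.24, whereas 47.4% of the 4498 genes as bright were above control, with a median of -0.0055. With ursolic acid 14 of the 32 markers were above control and the median log2 change was -0.0013, while 10 of the 13 brighter markers were above control with a median of 0.06, compared with 49.8% of the 4498 genes as bright. Partner genes among the markers varied together from mouse to mouse, and the same mice were highest for many markers. These counts are therefore not independent observations. Without tomatidine mice 3 and 4, which had the highest marker values, 16 of 32 markers were above control with tomatidine and the median was 0.0013, while 11 of the 13 brighter markers were above control with a median of 0.06.

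**Figure D1:**
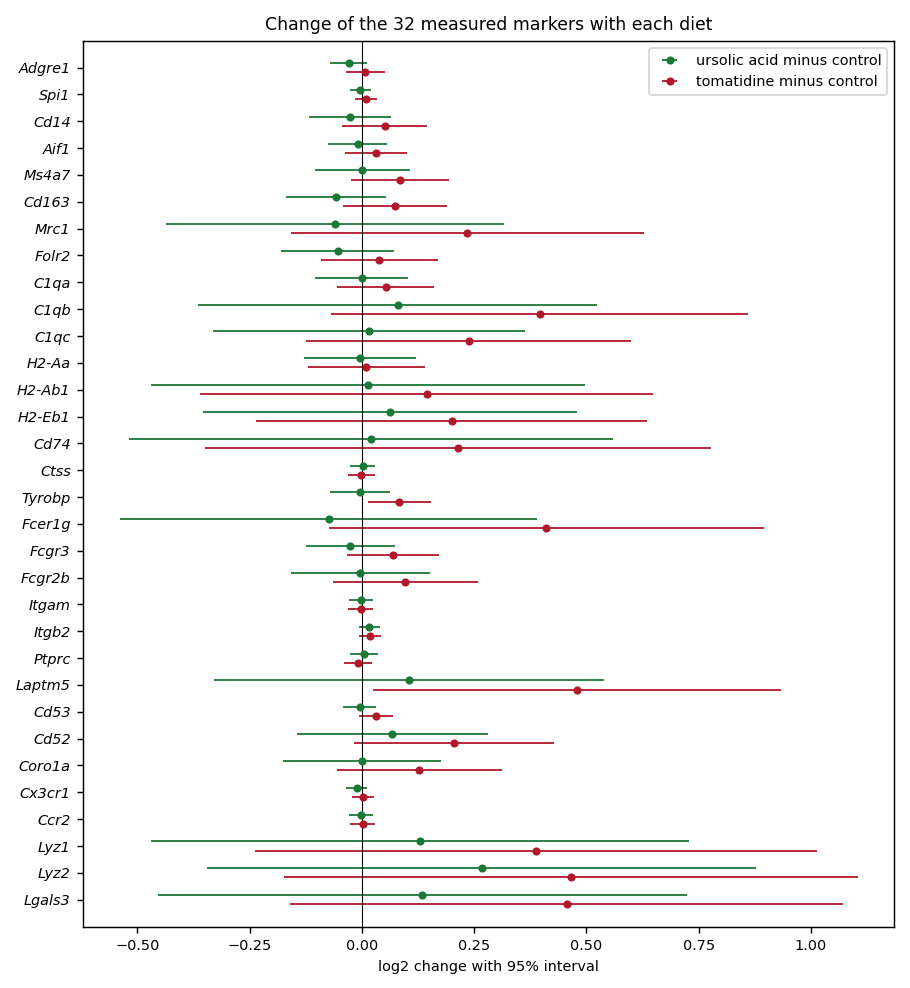
Log2 change (x axis) of the 32 measured markers (y axis) with ursolic acid (green) or tomatidine (red) relative to control, with 95% intervals from the limma fit. The 13 brighter markers have the wide intervals, and with tomatidine the intervals of 2 genes, Tyrobp and Laptm5, do not reach 0.

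Among the general lineage markers, none passed with either diet. Ms4a7, which encodes a membrane protein of macrophages and was the brightest of this group, read 8.19, 8.15, 8.09, 8.12 and 8.18 in control mice 1 to 5. It read 8.04, 8.24, 8.39, 8.31 and 8.18 in tomatidine mice 1 to 5 and ranged from 8.07 to 8.23 with a median of 8.14 in the 6 ursolic acid mice. The readings of tomatidine mice 2 to 4 were above every control reading and that of mouse 1 was below every one, and the log2 change was 0.08 (SE 0.05, adjusted p = 0.674). Adgre1, Spi1, Cd14 (the lipopolysaccharide co-receptor) and Aif1 (the actin-binding protein Iba1) had log2 changes of 0.01 to 0.05 with tomatidine and of -0.03 to -0.00 with ursolic acid.

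Of the resident-macrophage receptors, Mrc1 was the only one among the brighter markers. Mrc1 encodes the mannose receptor, and read 8.66, 8.68, 8.58, 8.60 and 9.28 in control mice 1 to 5 and 8.46, 8.69, 9.47, 9.41 and 8.96 in tomatidine mice 1 to 5. The ursolic acid mice ranged from 8.44 to 8.93, with a median of 8.71. Control mouse 5 and tomatidine mice 3 and 4 were above the other 13 mice, and the groups overlapped. The log2 change was 0.23 with tomatidine (95% interval -0.16 to 0.63, adjusted p = 0.766) and -0.06 with ursolic acid (95% interval -0.44 to 0.32, adjusted p = 0.956).

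Cd163, the receptor that takes up haptoglobin-bound haemoglobin, read 8.24, 8.24, 8.15, 8.22 and 8.33 in control mice, and 8.16, 8.26, 8.5, 8.37 and 8.26 in tomatidine mice. In the ursolic acid mice it ranged from 8.12 to 8.30, with a median of 8.16. It was 0.06 below control on average with ursolic acid and 0.07 above control with tomatidine, and neither difference passed. Folr2, a folate receptor of resident macrophages, changed by -0.05 and 0.04, respectively, without passing.

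The 3 genes of complement C1q, whose chains assemble into the protein that starts the classical complement pathway, had log2 changes of 0.05 (C1qa), 0.40 (C1qb) and 0.24 (C1qc) with tomatidine. C1qb read 9.22, 8.75, 8.60, 8.64 and 9.42 in the control mice and 8.65, 9.09, 9.75, 9.84 and 9.29 in the tomatidine mice. In the ursolic acid mice it ranged from 8.68 to 9.23 with a median of 9.06. Tomatidine mice 3 and 4 were above every other mouse, while tomatidine mouse 1 lay among the 3 low controls. The fold change with tomatidine was 1.32 (log2 0.40, 95% interval -0.07 to 0.86, adjusted p = 0.623), and with ursolic acid it was 1.06 (log2 0.08, 95% interval -0.36 to 0.52, adjusted p = 0.952).

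The MHC class II genes varied widely between mice on every diet, and none passed with either compound. H2-Aa, H2-Ab1 and H2-Eb1 encode chains of the class II molecules, Cd74 encodes the invariant chain that guides them through the cell, and Ctss encodes the protease cathepsin S that trims the invariant chain. Cd74 read 11.37, 10.43, 10.61, 10.44 and 11.20 in control mice 1 to 5, and 10.32, 11.28, 11.17, 11.42 and 10.92 in tomatidine mice 1 to 5. In ursolic acid mice it ranged from 10.26 to 11.43 with a median of 10.88. High and low mice occurred on all 3 diets, and the log2 change was 0.21 with tomatidine (95% interval -0.35 to 0.78, adjusted p = 0.878) and 0.02 with ursolic acid (95% interval -0.52 to 0.56, adjusted p = 0.992). H2-Ab1 read 10.59, 9.57, 9.71, 9.55 and 10.21 in the control mice and 9.57, 10.42, 10.12, 10.34 and 9.90 in the tomatidine mice, and 9.48 to 10.50 in the ursolic acid mice. Its highest mouse was a control, and its log2 changes were 0.14 with tomatidine and 0.01 with ursolic acid. Ctss, at a mean of 8.01, was near the floor.

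Class II genes and Cd74 are known to be switched on together by the coactivator CIITA, which acts on a group of short promoter elements that include the X and Y boxes. The promoters of 2 class II genes that varied together across the mice are shown to give these elements in place. Each line holds the 120 bases upstream of the transcription start from RefSeq (GRCm38.p6), in lower case, with GCAAC of the X region and the downstream GATTGG, which reads CCAAT of the Y box on the other strand, in capitals. H2-Aa lies on the minus strand (chr17:34287824-34287943) and H2-Eb1 on the plus strand (chr17:34305747-34305866).
H2-Aa: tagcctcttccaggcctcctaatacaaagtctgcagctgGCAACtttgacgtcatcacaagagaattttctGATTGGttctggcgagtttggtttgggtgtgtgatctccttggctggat
H2-Eb1: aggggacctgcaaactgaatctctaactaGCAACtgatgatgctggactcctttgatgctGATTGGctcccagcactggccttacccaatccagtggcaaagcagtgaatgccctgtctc
The X-region letters began 81 bases before the start in H2-Aa and 91 bases before it in H2-Eb1, and 27 and 26 bases, respectively, separated them from the Y letters. On either strand, GCAAC occurred in 35.2% of all 32851 promoters in the table, GATTGG in 16.1% and both in this order with 25 to 35 bases between them in 0.222%, or 73 promoters. Of the 28 promoters listed for 23 of the 34 markers, 2 held the pair, those of H2-Aa and H2-Eb1. The table had no H2-Ab1 entry. GAGGAA, the core letters of sites for the macrophage factor PU.1 (the product of Spi1), occurred on either strand in 12 of the 28, compared with 28.3% of all promoters.

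The gene that passed with tomatidine belongs to the Fc receptor group. Tyrobp encodes DAP12, an adaptor that carries signals from receptors such as Trem2 through an ITAM motif. It read 8.12, 8.10, 8.07, 8.13 and 8.17 in control mice 1 to 5, and 8.10, 8.21, 8.30, 8.24 and 8.15 in tomatidine mice 1 to 5. Tomatidine mice 2 to 4 were above every control, and mice 1 and 5 lay within the control range. The ursolic acid mice ranged from 8.07 to 8.17, with a median of 8.10. Tyrobp rose 1.06-fold with tomatidine (log2 0.08, 95% interval 0.01 to 0.15) at an adjusted p of 0.453 (0.154 to 0.875 over the alternatives), and its log2 change with ursolic acid was -0.0048. This gene was dim, with a mean of 8.14, and it passed in 6 of the 16 fits that each left out 1 mouse. It failed without any one of control mice 1 to 4, tomatidine mice 2 to 4 and ursolic acid mice 1, 4 and 6. Over all 16 of these fits its log2 change was 0.06 to 0.11. With background subtracted on the linear scale its log2 change was 0.32 (adjusted p = 0.404).

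Fcer1g, the shared gamma chain of Fc receptors, was brighter and spread more. It read 9.24, 8.87, 8.80, 8.77 and 9.47 in control mice and 8.77, 9.12, 10.05, 10.05 and 9.21 in tomatidine mice, and in ursolic acid mice it ranged from 8.70 to 9.17, with a median of 9.01. Tomatidine mice 3 and 4 exceeded every other mouse, with control mouse 5 next at 9.47, while the remaining tomatidine mice lay within the control range. The fold change with tomatidine was 1.33 (log2 0.41, 95% interval -0.07 to 0.89, adjusted p = 0.628), and without those 2 mice the log2 change was 0.0035. The Fc receptors Fcgr3 and Fcgr2b, activating and inhibitory, respectively, had log2 changes of 0.07 and 0.10 with tomatidine and of -0.03 and -0.0036 with ursolic acid.

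Among integrin and general leukocyte genes, Laptm5 had the largest log2 change of the 32 markers with tomatidine. Laptm5 encodes a lysosomal membrane protein of blood cells. It read 9.89, 9.72, 9.63, 9.44 and 10.07 in control mice 1 to 5, and 9.43, 10.25, 10.61, 10.74 and 10.12 in tomatidine mice 1 to 5. The ursolic acid mice ranged from 9.50 to 10.17, with a median of 9.89. Tomatidine mice 2 to 5 were above every control and tomatidine mouse 1 was below every one. The fold change was 1.39 (log2 0.48, 95% interval 0.02 to 0.93, adjusted p = 0.521), which did not pass, and without tomatidine mice 3 and 4 the log2 change was 0.18. Cd52, a glycoprotein of lymphocytes and myeloid cells, and Coro1a, an actin regulator of leukocytes, had log2 changes of 0.20 and 0.13 with tomatidine, and Itgam, Itgb2, Ptprc and Cd53, all near 8, had changes of -0.01 to 0.03. The chemokine receptor genes Cx3cr1 and Ccr2 were on the floor. Cx3cr1 read 8.0, 8.0, 7.97, 8.01 and 7.98 in control mice 1 to 5, 8.01, 7.98, 8.02, 7.99 and 7.99 in tomatidine mice and 7.96 to 8.01, with a median of 7.98, in ursolic acid mice. At these signals a difference could hardly be detected.

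The lysozyme genes Lyz1 and Lyz2, which encode enzymes that cut bacterial cell walls, and Lgals3, which encodes the galactose-binding lectin galectin-3, all had wide spreads. Lyz1 read 12.36, 11.42, 11.60, 11.46 and 12.30 in control mice 1 to 5 and 11.27, 12.15, 12.49, 12.76 and 12.41 in tomatidine mice 1 to 5, and it ranged from 11.24 to 12.52 with a median of 12.07 in ursolic acid mice. Control mice 1 and 5 were high and control mice 2 to 4 low, and the tomatidine mice included a value, 11.27, below every control. The log2 change was 0.39 with tomatidine (95% interval -0.24 to 1.01, adjusted p = 0.757) and 0.13 with ursolic acid (95% interval -0.47 to 0.73, adjusted p = 0.939). Lyz2 changed by 0.47 and 0.27, respectively, and neither passed. Lyz1 and Lyz2 are near copies of each other, and their probes may take up each other's transcript. Lgals3 read 9.14, 9.01, 9.0, 9.15 and 9.81 in control mice, 8.70, 9.48, 10.26, 10.42 and 9.52 in tomatidine mice and 8.87 to 9.89 in ursolic acid mice. Its lowest mouse and its 2 highest mice were all on tomatidine, and its log2 change was 0.46 with tomatidine (95% interval -0.16 to 1.07, adjusted p = 0.696) and 0.13 with ursolic acid (adjusted p = 0.935).

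**Figure D2:**
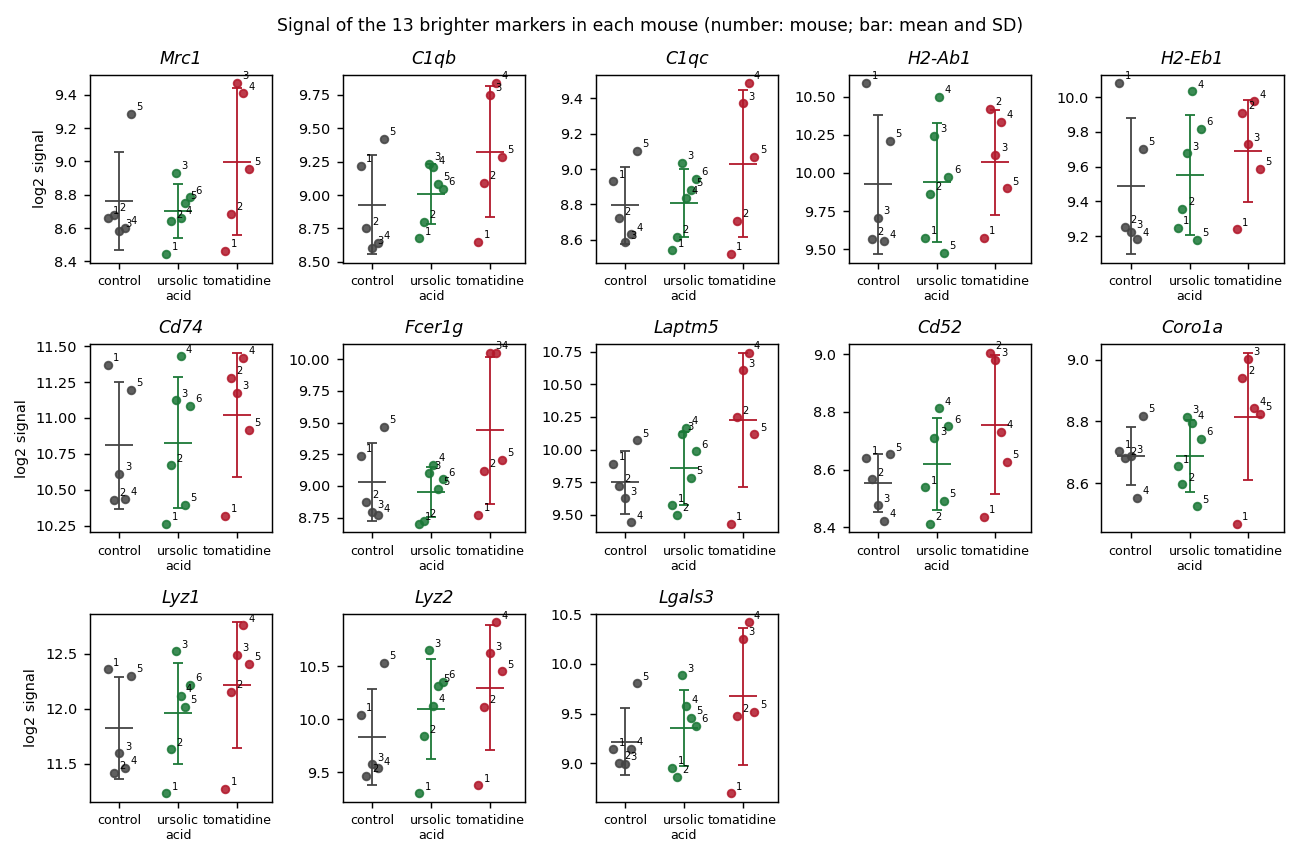
Log2 signal (y axis) of the 13 brighter markers in every mouse (points, numbered by mouse) on each diet, with the mean and SD of the diet. Tomatidine mice 3 and 4 are the 2 highest mice for Mrc1, C1qb, C1qc, Fcer1g, Laptm5 and Lgals3, and high and low mice occur in all 3 groups.

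The mice of a diet differed widely from each other. Tomatidine mouse 3 had the highest value of all 16 mice for 13 of the 32 markers and tomatidine mouse 4 for 9, and they were among the 3 highest for 10 and 11 of the 13 brighter markers. By contrast, tomatidine mouse 1 was lowest for 9 markers and ursolic acid mouse 1 for 12. Averaged over the brighter markers, tomatidine mice 1 to 5 deviated from the mean of the 16 mice by -0.45, 0.16, 0.50, 0.60 and 0.13. The control mice deviated by 0.13, -0.31, -0.31, -0.37 and 0.26, and the ursolic acid mice ranged from -0.42 to 0.22. Every group held both high and low mice, and the tomatidine group spanned the whole range. Tomatidine mice 2 to 5 were above the control mean for 11, 13, 13 and 12 of the 13 brighter markers and tomatidine mouse 1 for 0. Control mice 1 and 5 were above it for 11 and 13 and control mice 2 to 4 for 0 or 1. Over all probes, the first principal component held 25.7% of the variance, with tomatidine mice 4 and 3 and control mouse 5 at its high end (14.6, 7.11 and 5.84) and control mice 2 and 3 at its low end (-6.34 and -5.89).

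The count of markers that passed with tomatidine differed with the mice in the fit. Without tomatidine mice 3 and 4, 0 markers passed, beside 2.17% of all genes higher and 2.06% lower. The brighter markers then had log2 changes of -0.06 to 0.18. Since these were the highest mice for many markers, a smaller change without them follows from the choice of mice, as a larger one does without tomatidine mouse 1. Without tomatidine mouse 1, 9 markers passed as higher, beside 3.79% of all genes, and 0 reached an adjusted p of 0.1 (lowest 0.132). These 9 were Ms4a7, C1qb, Tyrobp, Fcer1g, Laptm5, Cd52, Coro1a, Lyz2 and Lgals3, with Laptm5 at a log2 change of 0.68 and Lgals3 at 0.70. The class II genes were not among them. No source used here gives a reason to leave out any of these mice, and the fit with all 16 is the result reported.

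The order of the mice was not the same for every marker. Control mouse 1 was of rank 1 of the 16 for H2-Ab1 and H2-Eb1 and rank 3 for Cd74 but rank 10 for Mrc1, counted from the highest, and ursolic acid mouse 4 was of rank 1 for Cd74 and 2 for H2-Ab1 but 11 for Mrc1. Tomatidine mouse 3, of rank 1 for Mrc1 and Fcer1g, was of rank 7 for H2-Ab1 and 6 for Cd74. Other markers lay between, with control mouse 1 at rank 4 for Fcer1g and 5 for Lyz1, and ursolic acid mouse 4 at rank 3 for Cd52 and 4 for Laptm5. Tomatidine mouse 4 ranked high for both kinds of gene, at 4 for H2-Ab1, 3 for H2-Eb1 and 2 for Cd74 and Mrc1. This is a description of ranks of genes picked after their values were seen, and a difference between gene groups was not tested.

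**Figure D3:**
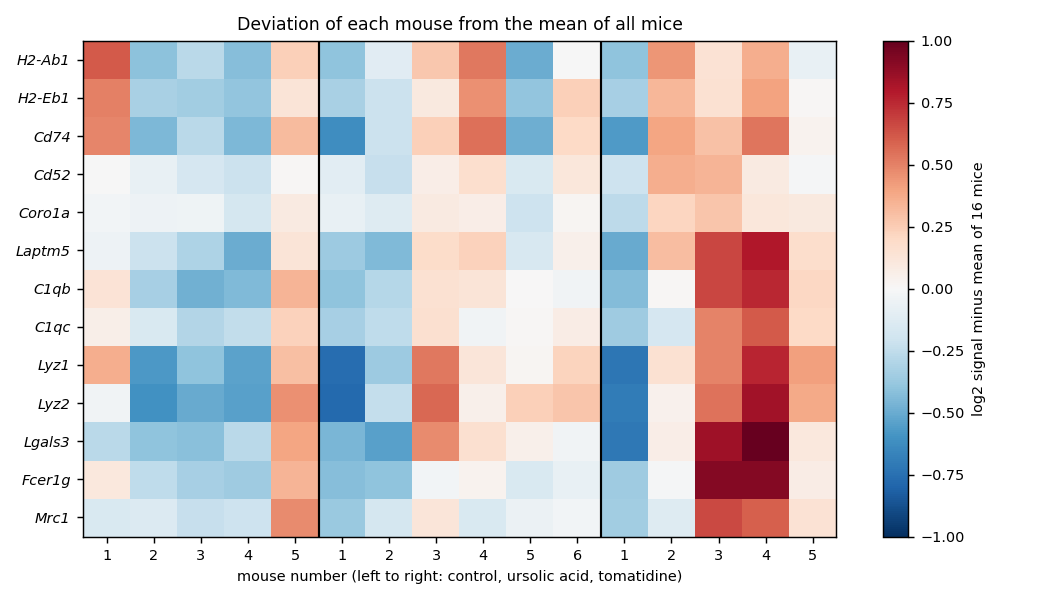
Difference of each mouse (columns, in the order control 1 to 5, ursolic acid 1 to 6, tomatidine 1 to 5) from the mean log2 signal of the 16 mice (colour, from -1 to 1) for the 13 brighter markers (rows). Tomatidine mice 3 and 4 are dark red from Laptm5 to Mrc1, whereas control mouse 1 and ursolic acid mouse 4 are red mainly in the class II rows.

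The spread between mice on the same diet was large for these genes. The SD between mice of a diet ranged from 0.15 to 0.51 on the log2 scale over the 13 brighter markers, with a median of 0.37, compared with a median of 0.09 over the 4498 genes as bright. All 13 exceeded that median, 12 exceeded its 90th percentile and 11 its 95th, and the exceptions to the last were Cd52 and Coro1a. The highest mouse exceeded the lowest by 1.45-fold for Coro1a and by up to 3.30-fold for Lgals3. The 95% intervals of the tomatidine changes were correspondingly wide, reaching from -0.24 to 1.01 for Lyz1.

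**Figure D4:**
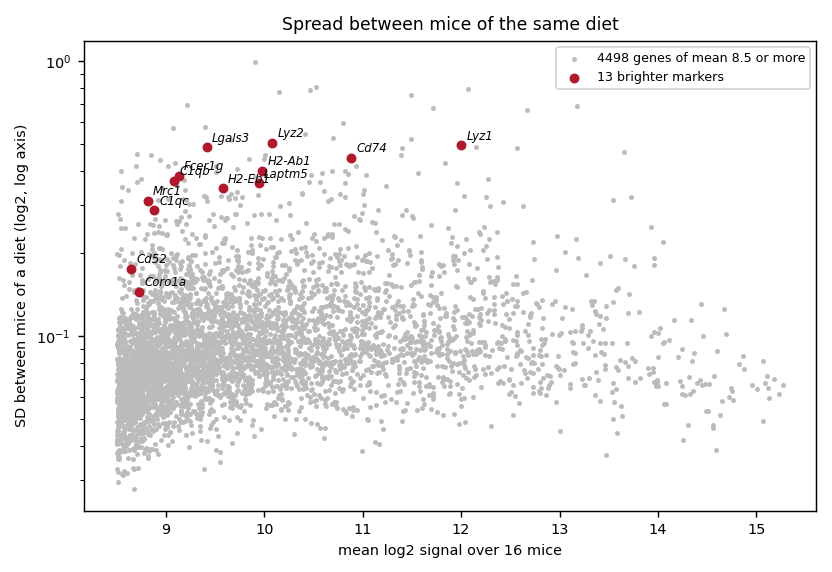
SD of log2 signal between mice of the same diet (y axis, log scale) against mean log2 signal (x axis) for the 4498 genes of mean 8.5 or more (grey), with the 13 brighter markers in red. Of the markers, 11 lie above the 95th percentile of these genes, with Lyz2 highest at 0.51. Coro1a, the lowest at 0.15, lies under the 90th percentile.

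Genes whose products work together were compared across mice after the mean of each diet was removed, in 12 pairs chosen for known complexes or near copies. In 11 of the 12 pairs the deviations correlated over the 16 mice, with Benjamini-Hochberg adjusted permutation p-values between 3e-05 and 0.000895 for Pearson's r and of at most 0.00301 for Spearman's rho. H2-Ab1 and Cd74 had a Pearson r of 0.96 (permutation p = 1e-05, the smallest that 100000 permutations give, adjusted p = 3e-05) and a Spearman rho of 0.95 (permutation p = 2e-05, adjusted p = 6e-05). C1qb and C1qc, which are neighbouring genes, had an r of 0.96 (permutation p = 1e-05, adjusted p = 3e-05) and a rho of 0.95 (permutation p = 2e-05, adjusted p = 6e-05). Lyz1 and Lyz2 had an r of 0.96 (permutation p = 2e-05, adjusted p = 3.43e-05) and a rho of 0.94 (permutation p = 1e-05, adjusted p = 6e-05). Since their probes may take up each other's transcript, this pair may not compare 2 separate genes. Without the 2 mice farthest from the median of the first gene, r was 0.96, 0.95 and 0.93 in these 3 pairs and 0.68 or more in all 11. H2-Aa, which was dim, had the lowest values, with r from 0.77 to 0.79 for its partners. Within single diets r for H2-Ab1 and Cd74 was 0.99 in control, 0.96 in ursolic acid and 0.96 in tomatidine mice. Itgam and Itgb2, which encode the 2 chains of the integrin Mac-1 and were both on the floor, did not pass (r = 0.42, permutation p = 0.268, and rho = 0.32, permutation p = 0.272, each the same after adjustment), and r was -0.04 without 2 mice. Both genes of a pair were read from the same array in each mouse. Pairs of markers that are not partners were not compared, so whether partners correlated more closely than other markers was not tested.

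**Figure D5:**
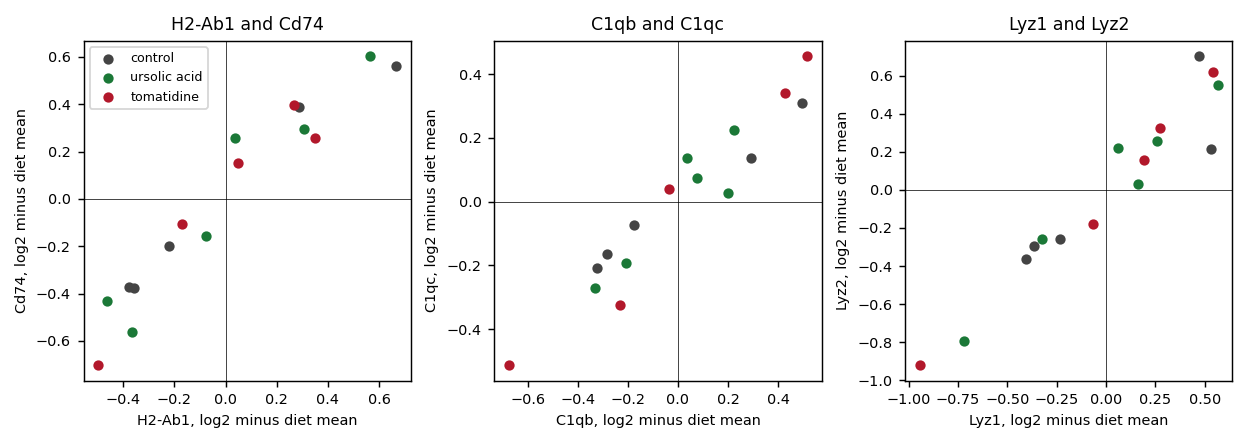
Log2 signal minus the mean of the diet for the first gene (x axis) and its partner (y axis), with 1 point per mouse coloured by diet. The points of H2-Ab1 with Cd74, C1qb with C1qc and Lyz1 with Lyz2 fall along a rising line (r = 0.96 in each), with mice of all 3 diets along its length.

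Ursolic acid and tomatidine were also set against each other, although their doses differed (0.27% and 0.05% of the chow). Of the 32 markers, 0 were higher with ursolic acid and 2 were lower, Tyrobp and Cd163, beside 1.47% of all genes higher and 1.57% lower. Tyrobp was 0.09 lower on the log2 scale with ursolic acid (log2 difference -0.09, 95% interval -0.16 to -0.02, adjusted p = 0.780), and Cd163 was 0.13 lower (log2 difference -0.13, 95% interval -0.24 to -0.02, adjusted p = 0.836). Fcer1g had the largest difference in size, -0.48, and did not pass (adjusted p = 0.855). By the methods' t-test 0 markers passed, with equal or unequal variances. Tyrobp alone was under an unadjusted p of 0.05 with equal variances, and 0 were with unequal variances. With background subtracted on the linear scale the differences were -0.34 for Tyrobp and -0.44 for Cd163. Without tomatidine mice 3 and 4 the differences of Tyrobp and Cd163 were -0.04 and -0.05. In that fit 0 markers passed, beside 1.04% of all genes higher and 1.34% lower. Without tomatidine mouse 1, 11 markers were lower with ursolic acid, beside 2.42% of all genes.

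Other genes of the same pathways were read from lists in which 11 to 15 genes each were measured. In lists of Fc receptor and ITAM signalling (12 genes measured), chemokines and their receptors (15) and resident and repair macrophage genes (12), 0 passed with either diet relative to control. Of 14 lysosomal genes, Gusb (beta-glucuronidase, log2 change 0.18, SE 0.07, adjusted p = 0.412) and Grn (progranulin, 0.27, SE 0.10, adjusted p = 0.426) rose with tomatidine, and 0 passed with ursolic acid. Of 14 other complement and phagocytic genes, the scavenger receptor Stab1, at a mean of 8.22, was higher with tomatidine (log2 change 0.09, SE 0.03, adjusted p = 0.334). With ursolic acid 0 passed. Of 14 inflammatory genes, Ptgs2 (cyclooxygenase-2) and the cytokine gene Il1b rose by 0.03 and 0.04 with tomatidine, at signals near 8. Of 11 myeloid growth and transcription factors, Cebpa and Irf5 rose by 0.06 and 0.09 with tomatidine (adjusted p = 0.383 and 0.390). Both were dim, with means of 8.08 and 8.18. The transcription factor gene Maf, at a mean of 8.21, fell by 0.06 with tomatidine (adjusted p = 0.453) and by 0.08 with ursolic acid (adjusted p = 0.333). Of 14 genes for class II loading and costimulation, Rfxank, a subunit of the X box factor RFX, fell by 0.04 and the receptor gene Cd40 rose by 0.03 with ursolic acid, both at signals near 8, and 0 passed with tomatidine. Over all 199 measured genes of the 20 lists, 10 were higher (5.03%, beside 2.68% of all genes) and 1 lower (0.503%, beside 3.38%) with tomatidine, and 5 were higher (2.51%, beside 2.81%) and 5 lower (2.51%, beside 2.86%) with ursolic acid.

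Markers of other cells were read in the same arrays. T and natural killer cell genes (14 measured), B and plasma cell genes (7) and dendritic cell genes (9) were all under 8.5. For the T and natural killer list, the log2 of the summed signals was 11.82 to 11.83 in control mice. It was 11.81 to 11.85 in ursolic acid mice and 11.81 to 11.85 in tomatidine mice. Of these 30 genes, 0 passed in any comparison, but at signals so near the floor a difference could hardly be detected. Of 6 mast cell genes and 11 neutrophil genes, 0 passed, and the mast cell sum ranked highest in tomatidine mouse 4, followed by tomatidine mouse 3. Of 9 adipocyte genes, the lipid droplet gene Cidec, Adig and the hormone gene Adipoq rose by 0.49, 0.45 and 0.48 with tomatidine (adjusted p = 0.224, 0.236 and 0.440). The adipocyte sum ranged from 12.64 to 12.96 in control, from 12.53 to 12.85 in ursolic acid and from 12.61 to 13.11 in tomatidine mice, with tomatidine mice 3 and 4 at ranks 2 and 4 of 16. Adig rose by 0.32 with ursolic acid (adjusted p = 0.386). The fibroblast sum was highest in tomatidine mouse 4 (13.80) and of rank 3 in tomatidine mouse 3 (13.63), beside a control range of 13.34 to 13.67, and 0 of 8 fibroblast genes passed relative to control. The mast cell, adipocyte and fibroblast sums were thus high in mice that were also high for the macrophage markers. Not every list did so. Tomatidine mice 3 and 4 ranked 4 and 3 for neutrophil, 11 and 13 for endothelial and 12 and 16 for Schwann cell genes. They ranked 3 and 14 for erythroid, 4 and 12 for pericyte and smooth muscle and 10 and 3 for fast muscle fibre genes. For T and natural killer, B and plasma and dendritic cell genes they ranked 4 and 14, 6 and 15 and 10 and 9. The part of these cells in the marker values was not tested. Of 9 endothelial genes, Emcn and Egfl7 rose by 0.30 and 0.21 with ursolic acid (adjusted p = 0.359 and 0.415). The pericyte gene Rgs5 rose by 0.20 (adjusted p = 0.418). Of 8 fast muscle fibre genes, Tnni2, Myh4 and Ckm fell by 0.11, 0.26 and 0.10 with ursolic acid (adjusted p = 0.333, 0.403 and 0.414). Of the 199 genes, 6 were lower with ursolic acid than with tomatidine (3.02%, beside 1.57% of all genes) and 0 were higher, and these 6 were Cxcl1, Il1b, Cidec, Adipoq, Pdgfra and Col3a1.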

How the data were processed

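RNA of each quadriceps was hybridised to 1 Illumina Mouse Ref-8 array per mouse and read on an iScan scanner. The authors extracted signals with BeadStudio and deposited normalized log2 values. Background correction, scaling and software release were not given in the sources used here. These values were used unchanged. Each value column bore the label of 1 mouse, and 0 of 120 pairs of arrays were identical (r from 0.99 to 0.998). Probes were named through the platform annotation with symbols updated by RefSeq gene identifier (23978 of 25697 probes had 1 symbol).

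A linear model with a mean for each diet was fitted to every probe over the 16 arrays (limma 3.58.1, R 4.3.3), with moderated variances and 13 residual degrees of freedom. The study's threshold, an unadjusted p of 0.025 or less, defines passed, rose and fell, and a printed adjusted p is the Benjamini-Hochberg value over all probes. The markers, gene lists and tests were chosen with earlier results of these data known, so no p is given for the list. Every marker is accounted for, with values by mouse for genes that passed and for the brightest gene of each role (for the 6 ursolic acid mice, the lowest, median and highest). In other lists, up to 3 genes with the smallest p among those that passed are named. Another 20 probes of 11 markers were tested, of which 16 were under 8.5 and 0 passed, with changes up to 0.181 in size. Partner genes were compared in Python 3.11.15 by 2-sided permutation within diets (100000 resamples). Alternatives changed the scaling, background, filter, probe rule, variance model, test, block and mice. The fit was tested on simulated data. The number of arrays limits the precision, and the mice are separate animals.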

Additional observations from a re-analysis of the deposited data

Results flagged for a closer look

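Mrc1 in control mouse 5 was 9.28, whereas the other 4 control mice lay between 8.58 and 8.68, a gap that put this mouse apart from its group. Lgals3 in the same mouse was 9.81, with the other 4 control mice between 9.0 and 9.15. Of 96 groups of 1 marker on 1 diet, these 2 held such a mouse, and chance gives about 1 in 20 groups. The difference between the 2 diets passed the unadjusted threshold for Cd163 (ursolic acid minus tomatidine -0.13 on the log2 scale, limma adjusted p = 0.836) and for Tyrobp (-0.088 on the same scale, limma adjusted p = 0.780), and neither reached an adjusted p of 0.1.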

How the results depend on the processing

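With ursolic acid the count of markers that passed was 0 under all 29 alternatives. With tomatidine the count of 1 became 0 when quantile normalization was repeated, when only the 2 groups compared were fitted, by either form of the methods' t-test, with only probes of mean 8.5 or more (where the median log2 change over the markers was 0.24), with only probes at or above the median, and without tomatidine mice 3 and 4. It became 2 (Tyrobp and Laptm5) with background subtracted on the linear scale. Between ursolic acid and tomatidine the count of 2 became 0 when only the 2 groups were fitted, by either t-test, with only probes of mean 8.5 or more and without tomatidine mice 3 and 4. In both comparisons the filter at 8.5 leaves out the genes that had passed, Tyrobp and Cd163. The count under that filter therefore says nothing about their calls. With each mouse left out in turn the count ranged from 0 to 9 with tomatidine, from 0 to 0 with ursolic acid and from 0 to 11 between the compounds. The highest counts came without tomatidine mouse 1, while the tomatidine count was 0 without any one of control mice 1 to 4, tomatidine mice 2 to 4 or ursolic acid mice 1, 4 and 6. Between the compounds it was 0 without any one of tomatidine mice 3 and 4 and ursolic acid mice 2 and 4, and 1 without any one of control mice 1, 2 and 4 and ursolic acid mice 1, 3 and 6. Median changes under these fits ran from 0.04 to 0.11 with tomatidine, from -0.02 to 0.02 with ursolic acid and from -0.13 to -0.06 between the compounds. With background subtracted on the linear scale they were 0.22 with tomatidine and -0.24 between the compounds. Mouse numbers were not used to pair the samples in the main fit. Of 15 same-numbered pairs, 4 correlated over 0.1, all 4 of them between an ursolic acid and a tomatidine mouse. In these 2 diets r was 0.32, 0.11, 0.22 and 0.18 for mice 1, 3, 4 and 5 and -0.097 for mice 2. Over all diets 2 of 15 mice correlated best with their own number. A pairing of ursolic acid with tomatidine mice was therefore not excluded. With the mouse number as a replicate block the counts were 0, 1 (Cd53) and 2 (Cd163 and Cd53), with medians of -0.0050, 0.08 and -0.09 for ursolic acid, tomatidine and the difference between them, and Tyrobp no longer passed in either comparison. Over the 96 single-marker changes, 2638 values under the alternatives kept their side of the threshold, 41 lost it and 24 gained it, and no called change turned its sign. Signals near the floor limited the 19 dim markers.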
